A study of Mus musculus with 29 samples.

Results

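A set of 41 interferon-stimulated genes was followed in RNA-seq counts of sorted megakaryocyte-erythrocyte progenitors (MEPs), the bone marrow cells from which platelets and red cells arise. The genes were named from their known induction by interferon, not by a threshold on values in these libraries. The set was chosen with earlier results of these data known, so the counts below are not an independent test of it. All 41 were found among the 18834 genes of the count tables by their symbol and Entrez identifier, and all 41 were among the 13928 genes that passed a filter on low counts and were tested. They comprise 4 transcription factors, 5 sensors of foreign or misplaced nucleic acid, 5 members of the 2-5A synthetase family, 3 Ifit and 3 Ifitm genes, 6 Mx GTPases and other antiviral effectors, 3 genes of the ISG15 system, 3 genes of antigen processing and 9 further genes. The comparison of most interest was that of JAK2 V617F with no V617F, in MEPs without Ezh2 and in MEPs with both Ezh2 alleles.

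The 29 libraries came from mice of 6 genotypes, and every genotype, controls included, carried SclCre (also written ScleCre), a Cre recombinase named for the blood and endothelial gene Scl (Tal1). With JAK2 V617F there were 6 Ezh2 -/- libraries, 6 Ezh2 +/- libraries and 4 Ezh2 +/+ libraries, called V617F Ezh2 -/-, V617F Ezh2 +/- and V617F Ezh2 +/+ here. Without V617F there were 4 Ezh2 -/- libraries, 4 Ezh2 +/- libraries and 5 Ezh2 +/+ libraries, and those last 5 are the controls. All libraries of V617F Ezh2 -/- and V617F Ezh2 +/- were from females, while the other 4 groups held 1 or 2 males each, so the labelled sex was a term of the model. Age, the sorting gate, pooling of animals and the deleted part of Ezh2 were not stated. The labels call the libraries of a group replicates and do not say whether each came from its own mouse. Groups with both sexes hold more than 1 mouse, and otherwise part of the spread behind the p-values may be technical. EZH2 is the methyltransferase of the Polycomb repressive complex PRC2, which places a repressive mark on a histone, and V617F makes the cytokine receptor kinase JAK2 active without its ligand, as is common in myeloproliferative neoplasms.

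Interferons are secreted by cells that detect a virus or misplaced nucleic acid. A type I interferon binds its receptor on the receiving cell, whose associated kinases TYK2 and JAK1 switch on a complex that contains STAT2 and IRF9, and this complex binds the interferon-stimulated response element (ISRE) in the promoters of its target genes. Interferon gamma acts through a receptor that uses JAK1 and JAK2 and through another promoter element. Some of the targets are the transcription factors themselves, so the response amplifies itself, and interferon is used to treat myeloproliferative neoplasms.

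The ISRE is a doublet of GAAA blocks. The letters GAAA, then 2 bases of any kind (NN), then GAAA were searched on both strands in RefSeq promoter windows of GRCm38.p6 that run from 250 bases before to 50 bases after an annotated start. The count tables were made on mm9, and no coordinate was carried between the builds. Of the 41 genes 31 had a window, and 14 of the 31 (45.2%) held at least 1 match, against 415 of the 10952 tested genes with a window (3.79%) and 3.44% of all 32851 windows. Mx1, Mx2, Ifi27l2a, Rtp4, Parp14, Usp18, Oas2, Zbp1, Dhx58 and Parp9 had no window. The stretches printed here lie upstream of the start in the 5 genes that have a match there and the lowest adjusted p for the difference between the V617F effects in Ezh2 -/- and Ezh2 +/+, described further on. Matching bases are in capitals and each stretch reads 5′ to 3′ toward its gene's start, so that a match on the opposite strand appears as TTTC blocks. In Stat2 (chr10:128270248-128270497, plus strand) the match began 222 bases before the start. In Oas3 (chr5:120777660-120777809, minus strand) it began 75 bases before. Ifit1 (chr19:34640739-34640888, plus strand) held 2 matches, beginning 104 and 85 bases before the start. The match in Trim30a (chr7:104465194-104465343, minus strand) began 36 bases before the start. In Isg15 (chr4:156200819-156200968, minus strand) 3 matches overlapped each other, the first beginning 78 bases before the start and the last 66 bases before.
Stat2: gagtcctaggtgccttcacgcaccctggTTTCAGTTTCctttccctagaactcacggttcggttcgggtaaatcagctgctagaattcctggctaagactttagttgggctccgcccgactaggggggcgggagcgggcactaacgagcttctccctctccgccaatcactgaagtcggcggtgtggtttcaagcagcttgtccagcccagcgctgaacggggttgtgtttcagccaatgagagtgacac
Oas3: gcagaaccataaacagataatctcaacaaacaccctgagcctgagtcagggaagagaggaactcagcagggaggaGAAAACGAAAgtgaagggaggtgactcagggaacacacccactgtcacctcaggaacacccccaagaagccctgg
Ifit1: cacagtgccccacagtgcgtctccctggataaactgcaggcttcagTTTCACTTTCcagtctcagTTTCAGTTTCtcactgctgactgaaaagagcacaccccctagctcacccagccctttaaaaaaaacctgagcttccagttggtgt
Trim30a: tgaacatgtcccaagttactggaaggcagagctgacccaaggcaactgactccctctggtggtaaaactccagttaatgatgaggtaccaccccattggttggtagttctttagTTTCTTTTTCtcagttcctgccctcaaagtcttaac
Isg15: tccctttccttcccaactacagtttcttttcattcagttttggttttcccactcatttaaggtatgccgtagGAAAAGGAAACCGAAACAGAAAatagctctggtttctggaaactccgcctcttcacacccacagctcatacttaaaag

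Total counts ran from 31.6 to 59.4 M per library (median 44.6 M). Levels are given as CPM, a gene's reads per M reads of its library's TMM-scaled total. Ezh2 itself followed the labels, with 51.2 to 59.5 CPM in V617F Ezh2 -/-, 148 to 205 CPM in V617F Ezh2 +/-, 244 to 313 CPM in V617F Ezh2 +/+, 67.9 to 79.5 CPM in Ezh2 -/-, 188 to 197 CPM in Ezh2 +/- and 269 to 319 CPM in controls. The MEP and erythroid markers Gata1 (184 to 298 CPM) and Klf1 (152 to 338 CPM) were present in all 29 libraries, and the summed markers are given by group further on. Changes are log2 fold changes ± SE with Benjamini-Hochberg adjusted p-values over all tested genes from edgeR's quasi-likelihood test, in a single fit of the 29 libraries. A gene is called higher or lower where its adjusted p was under 0.05. Several of the genes belong to families with close copies (Oas, Oasl, Ifit, Ifitm, Mx, Trim30), and with the counting program and its use of strand not stated, how reads shared between copies or with overlapping genes were assigned is uncertain.

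Resting levels in control MEPs differed widely between the genes. Per kilobase of annotated length (RPKM), the highest were Ifitm2 at 232 ± 19.7 and Ifitm3 at 91.9 ± 33.3, membrane proteins that block virus entry, and Psmb8 at 88.1 ± 13.2, a catalytic subunit of the immunoproteasome (SD, n = 5). The lowest were Mx1 at 0.300 ± 0.105 and Ifit3 at 0.188 ± 0.129 RPKM.

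Replicate 5 of the controls and replicate 5 of Ezh2 +/- stood apart before any comparison. The first had the highest level of the 5 controls in 37 of the 41 genes, and the second the highest of its 4 libraries in 40 of the 41. Over all tested genes they were highest in 31.3% and 33.3%. Both were also high in markers of other cells. The summed level of T and NK cell markers was 227 CPM in Ezh2 +/- replicate 5 and 272 CPM in control replicate 5, and that of monocyte, macrophage and dendritic cell markers was 572 and 687 CPM, each the highest of its group. Megakaryocyte sums, at 398 and 461 CPM, were also the highest of their group. MEP and erythroid sums, at 6864 and 6546 CPM, were the lowest of theirs. The part of these cells in the interferon-stimulated genes was not tested. Counts of genes that moved by over 1.5 times when 1 library was left out are given without that library too. The share of all genes stands beside them for the fits without control replicate 5 or Ezh2 -/- replicate 3. For other such fits, for DESeq2 and for unadjusted p it is not given, so those counts have no baseline.

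**Figure D1:**
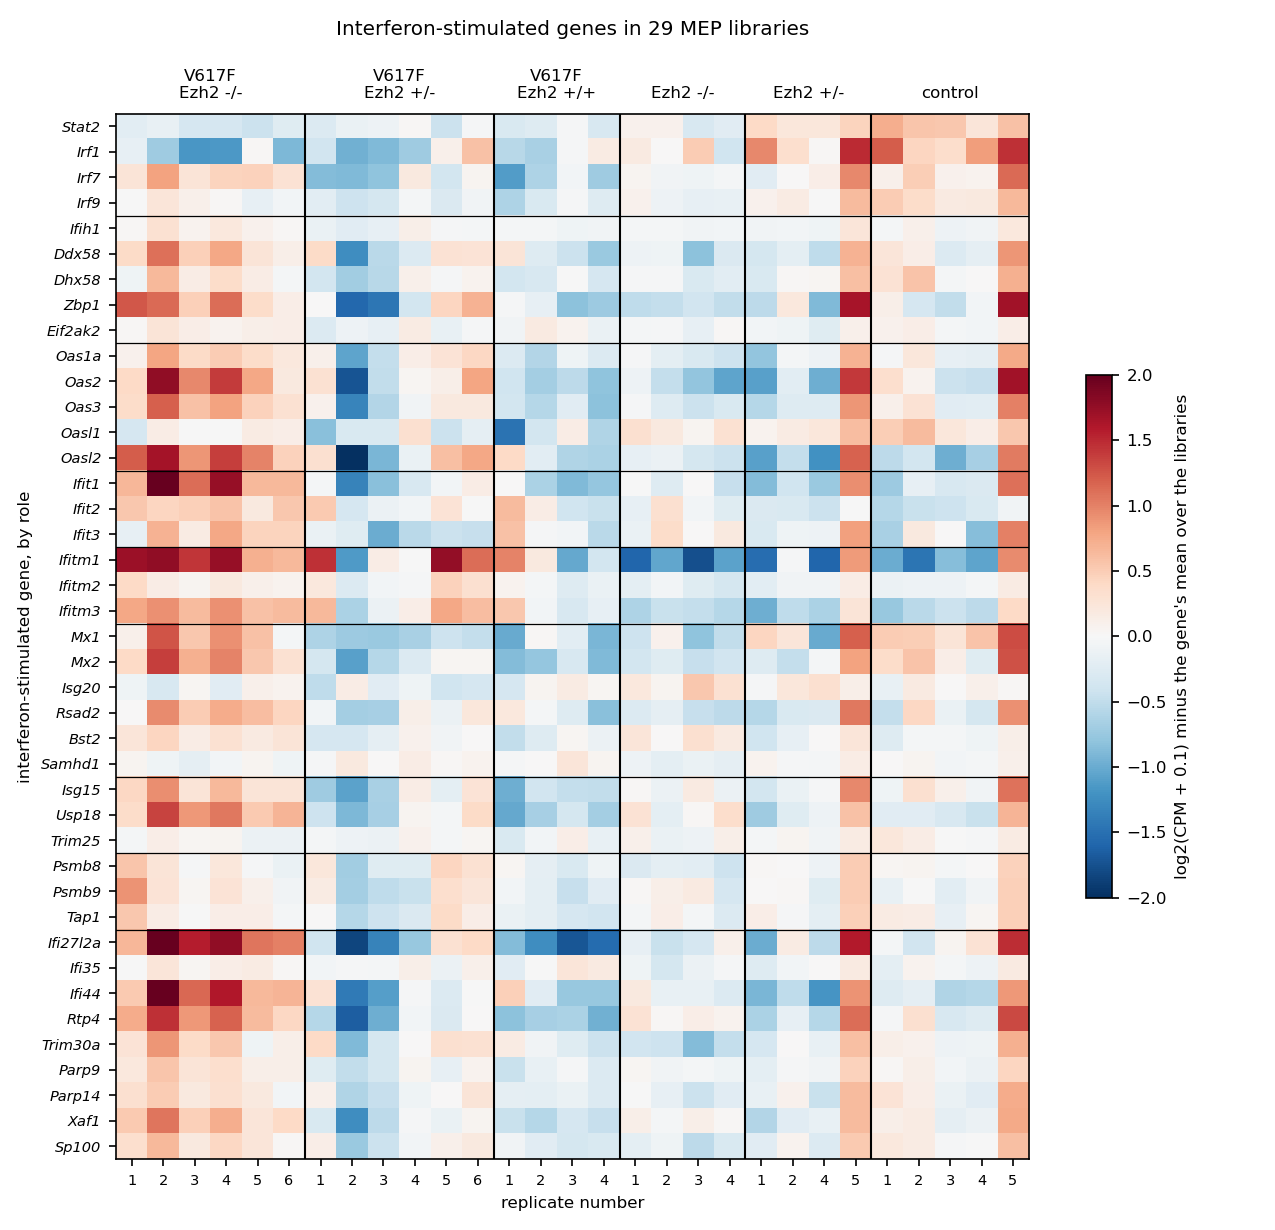
Each row is an interferon-stimulated gene, ordered by role, and each column is a library, grouped by genotype. Colour is log2(CPM + 0.1) minus the gene's mean over the 29 libraries. The V617F Ezh2 -/- block is mostly above the mean, the V617F Ezh2 +/+ block mostly below it, and replicate 5 of the controls and of Ezh2 +/- is high in nearly every row.

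Averaged over the 41 genes, the mean log2 CPM was 4.69 ± 0.21 in V617F Ezh2 -/-, 4.06 ± 0.37 in V617F Ezh2 +/-, 3.94 ± 0.10 in V617F Ezh2 +/+, 4.09 ± 0.07 in Ezh2 -/-, 4.25 ± 0.48 in Ezh2 +/- and 4.37 ± 0.37 in controls (SD, n = 6, 6, 4, 4, 4 and 5). All 6 V617F Ezh2 -/- libraries, at 4.46 to 5.04, lay above all 4 Ezh2 -/- libraries, at 4.03 to 4.17. All 4 V617F Ezh2 +/+ libraries, at 3.80 to 4.02, lay below all 5 controls, at 4.13 to 5.01. For 31 of the 41 genes the highest of the 6 group means was that of V617F Ezh2 -/-, while the lowest was that of V617F Ezh2 +/+ for 19 and that of Ezh2 -/- for 13. The matching shares over all tested genes are not given, so these counts have no baseline. Libraries within V617F Ezh2 -/- differed too, since its replicate 2 was the highest of 6 in 29 genes, and in 18.2% of all tested genes.

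In MEPs without Ezh2, V617F went with more RNA of interferon-stimulated genes. Of the 41 genes 18 were higher and 1, Isg20, was lower in V617F Ezh2 -/- than in Ezh2 -/-. That is 43.9% higher where 19.1% of all tested genes were higher, and 2.44% lower where 22.5% of all were lower. The median log2 fold change of the 41 was 0.42, beside -0.03 over all genes, and 37 were positive. The count higher was 5 without Ezh2 -/- replicate 3, where 11.3% of all genes were higher, which leaves the members near the share of all genes. It was 8 without V617F Ezh2 -/- replicate 2, 9 without Ezh2 -/- replicate 1 and 11 without Ezh2 -/- replicate 2. No share of all genes higher is given for these fits. Ifit2 and Usp18 lost this call in 13 and 10 of the 29 fits that left out 1 library.

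In MEPs with both Ezh2 alleles the calls ran the other way. None was higher and 13 (31.7%) were lower in V617F Ezh2 +/+ than in controls, where 9.73% of all genes were higher and 13.9% lower. The median was -0.43, beside 0.01 over all genes, and 36 were negative. At an unadjusted p under 0.05, 1 was higher and 20 were lower, and DESeq2 called 0 higher and 16 lower. Without control replicate 5 the count lower was 6, namely Stat2, Irf7, Irf9, Mx2, Oasl1 and Ifi27l2a, all of them among the 13, where 11.2% of all genes were lower, and the median was -0.27. Without V617F Ezh2 +/+ replicate 4 it was 8. Sp100 and Xaf1 lost this call in 12 and 9 of the 29 fits that left out 1 library.

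These 2 comparisons share no library, but they come from a single fit and share its sex term and its estimate of spread. A negative fold change in Ezh2 +/+ together with a positive one in Ezh2 -/- was found for 32 of the 41 genes and for 19.2% of all tested genes. Mx1, Mx2, Ifi27l2a and Sp100 were lower in V617F Ezh2 +/+ than in controls and also higher in V617F Ezh2 -/- than in Ezh2 -/-, which is 22.2% of the 18 and 30.8% of the 13. Among all tested genes 45 (0.323%) had that pair of calls. With earlier results of these data known when the set was chosen, these counts and those of the interaction below describe it only.

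The difference between the 2 effects was tested as the interaction of V617F with Ezh2 -/-. It was positive for 40 of the 41 genes, with a median of 0.95 beside 0.03 over all genes, and it was called positive for 25 and negative for 0. Of all tested genes 8.47% were called positive and 10.6% negative. At an unadjusted p under 0.05, 31 were positive and 0 negative, and DESeq2 called 29 positive and 0 negative. Of the 25 genes called, 23 had opposite signs in the 2 comparisons, 11 were lower in V617F Ezh2 +/+, 13 were higher in V617F Ezh2 -/- and 5 were called in neither. Without control replicate 5 the count was 13, all of them among the 25, where 3.51% of all genes were called positive. It was 4 without Ezh2 -/- replicate 3, where 1.07% of all were called positive. It was 11 without V617F Ezh2 +/+ replicate 4, 12 without control replicate 1 and 16 without V617F Ezh2 -/- replicate 2. No share of all genes is given for these last fits. The median of the 41 was 0.85 without control replicate 5 and 0.90 without Ezh2 -/- replicate 3. The 13 still called without control replicate 5 were Stat2, Irf7, Irf9, Mx1, Mx2, Oas2, Oas3, Ifit1, Ifi27l2a, Rtp4, Trim30a, Xaf1 and Sp100. Calls lost in the most of the 29 fits without 1 library were those of Ifitm1 (18), Psmb8 (16), Ifitm2 (13), Zbp1 (11) and Rsad2 (10).

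**Figure D2:**
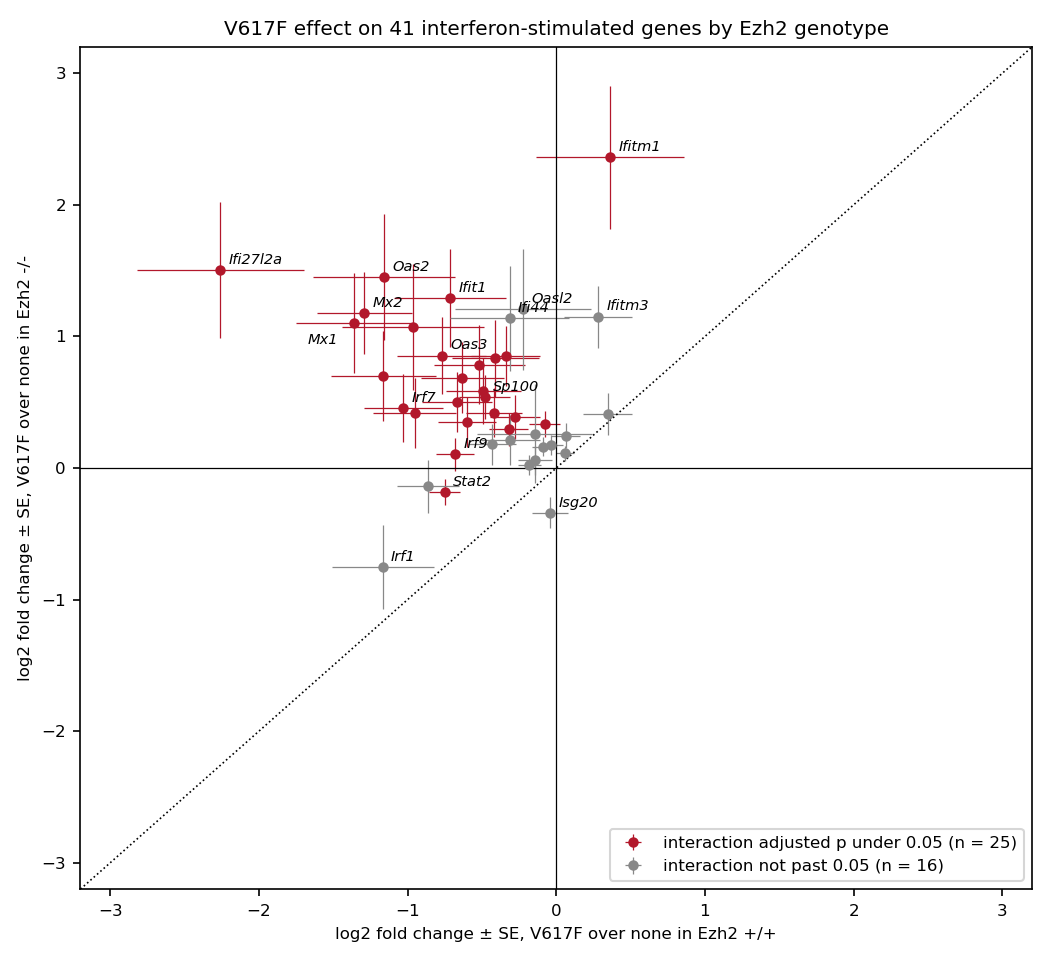
Each point is an interferon-stimulated gene, with the log2 fold change of V617F in Ezh2 +/+ on the x axis and in Ezh2 -/- on the y axis, and bars of 1 SE. Red points are the 25 genes whose interaction passed an adjusted p of 0.05 and grey points are the other 16. Of the 41 points 32 are left of 0 on the x axis and above 0 on the y axis.

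**Figure D3:**
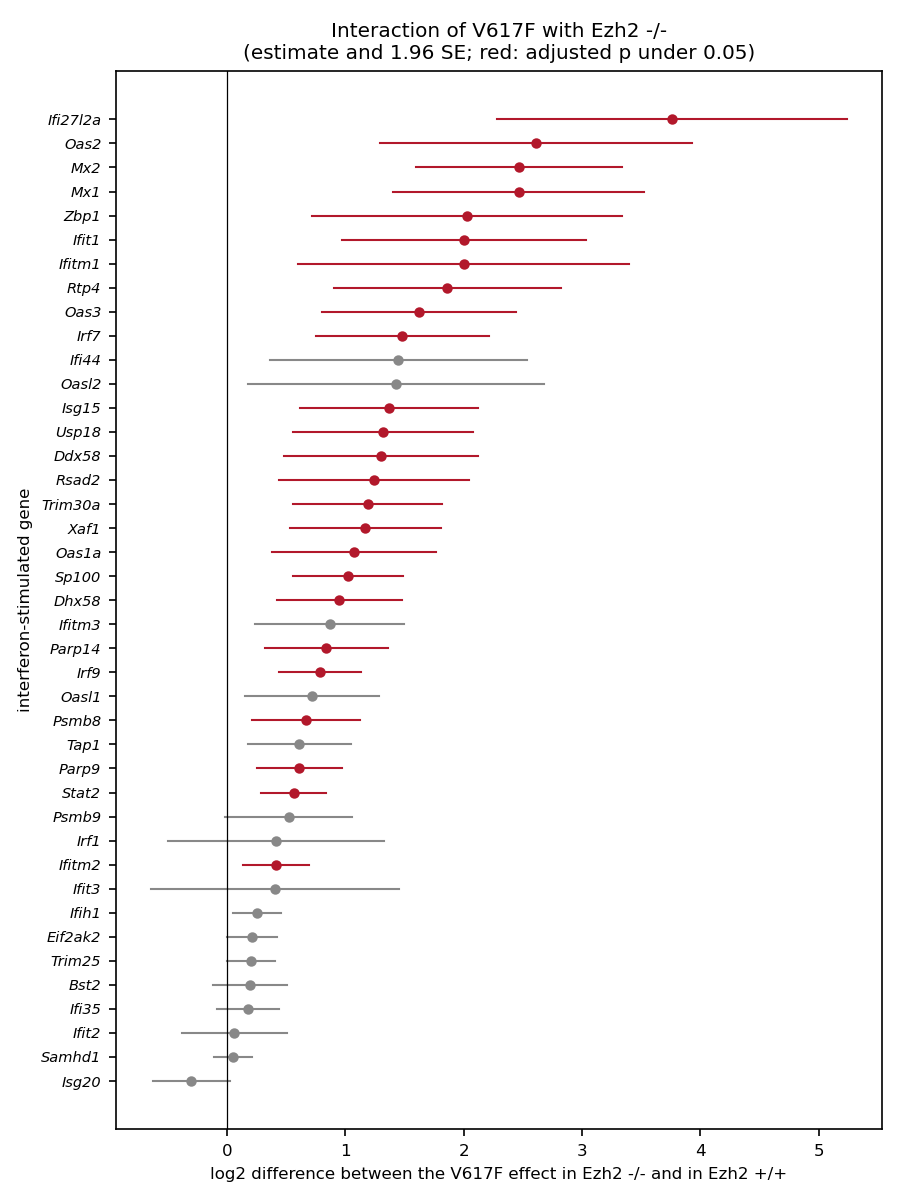
For each gene the point is the log2 difference between the V617F effect in Ezh2 -/- and that in Ezh2 +/+, with a bar for its 95% interval. Ifi27l2a has the highest estimate, at 3.76, and Isg20 is the one gene below 0, at -0.30.

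Markers of MEPs and of other cells were read in the same comparisons. For the marker counts, of all tested genes 19.1% were higher and 22.5% lower in V617F Ezh2 -/- than in Ezh2 -/-. In V617F Ezh2 +/+ against controls 9.73% were higher and 13.9% lower, and 8.47% had a positive interaction. Of 14 MEP and erythroid markers 1 was higher and 6 were lower in V617F Ezh2 -/- than in Ezh2 -/-, with a median log2 fold change of -0.31. Their sums did not overlap, at 5216 to 6279 CPM in V617F Ezh2 -/- and 7532 to 8727 CPM in Ezh2 -/-. Most of that gap lay in Car1, at a mean of 1883.6 CPM in V617F Ezh2 -/- and 3274.5 CPM in Ezh2 -/-. By fold change 10 of the 14 were negative and 4 positive. In V617F Ezh2 +/+ against controls 2 higher and 2 lower MEP and erythroid markers were found, near the shares of all genes. Their sums overlapped, at 6602 to 8102 CPM in V617F Ezh2 +/+ and 6546 to 8083 CPM in controls. Of 23 tested T and NK cell markers, 2 were higher and 10 lower in V617F Ezh2 -/- than in Ezh2 -/-, 0 were higher and 17 lower in V617F Ezh2 +/+ than in controls, and 6 had a positive interaction. Of 24 monocyte, macrophage and dendritic cell markers the counts were 1 higher and 8 lower, 0 higher and 16 lower, and 7 positive interactions. Summed T and NK cell levels ran from 103 to 154 CPM in V617F Ezh2 -/- and 84.6 to 140.0 CPM in Ezh2 -/-, and from 50.9 to 106 CPM in V617F Ezh2 +/+ and 88.1 to 272 CPM in controls. Monocyte, macrophage and dendritic cell sums ran from 169 to 297 CPM in V617F Ezh2 -/- and 182 to 243 CPM in Ezh2 -/-, and from 152 to 209.8 CPM in V617F Ezh2 +/+ and 298 to 687 CPM in controls. In these lists Cd8b1 was at 0 in all V617F Ezh2 +/+ libraries, and no other marker was at 0 in every library of a group.

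Megakaryocyte and granulocyte markers were higher with V617F in both Ezh2 genotypes. Of 15 megakaryocyte markers, 15 were higher in V617F Ezh2 -/- than in Ezh2 -/-, 10 were higher in V617F Ezh2 +/+ than in controls, and 5 had a positive interaction. Their sums were 799 to 1215 CPM in V617F Ezh2 -/- and 106 to 156 CPM in Ezh2 -/-, and 292 to 1289.7 CPM in V617F Ezh2 +/+ and 125 to 461 CPM in controls. Of 18 granulocyte markers 18 and 14 were higher in those comparisons, and of 17 stem and multipotent progenitor markers 14 and 8 were higher. Granulocyte sums were 137 to 1376 CPM in V617F Ezh2 -/- and 23.2 to 90.9 CPM in Ezh2 -/-, and 681 to 1211 CPM in V617F Ezh2 +/+ and 51.8 to 348 CPM in controls. B cell sums were 8.04 to 63.1 CPM in V617F Ezh2 -/- and 9.77 to 37.6 CPM in Ezh2 -/-, and 3.94 to 10.9 CPM in V617F Ezh2 +/+ and 7.01 to 24.1 CPM in controls, with 3 positive interactions among 14 markers. Plasmacytoid dendritic cells, the blood cells best known for secreting type I interferon, had 6 tested markers with 1 positive interaction. Their sums were 78.5 to 95 CPM in V617F Ezh2 -/- and 62.4 to 84.2 CPM in Ezh2 -/-, and 67.8 to 99.5 CPM in V617F Ezh2 +/+ and 79.4 to 102 CPM in controls, with Klk1 and Cd300c at 0 in every V617F library. The part of these cell types in the interferon-stimulated genes was not tested. In bulk samples, fewer cells of a type and less RNA per cell cannot be told apart.

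**Figure D4:**
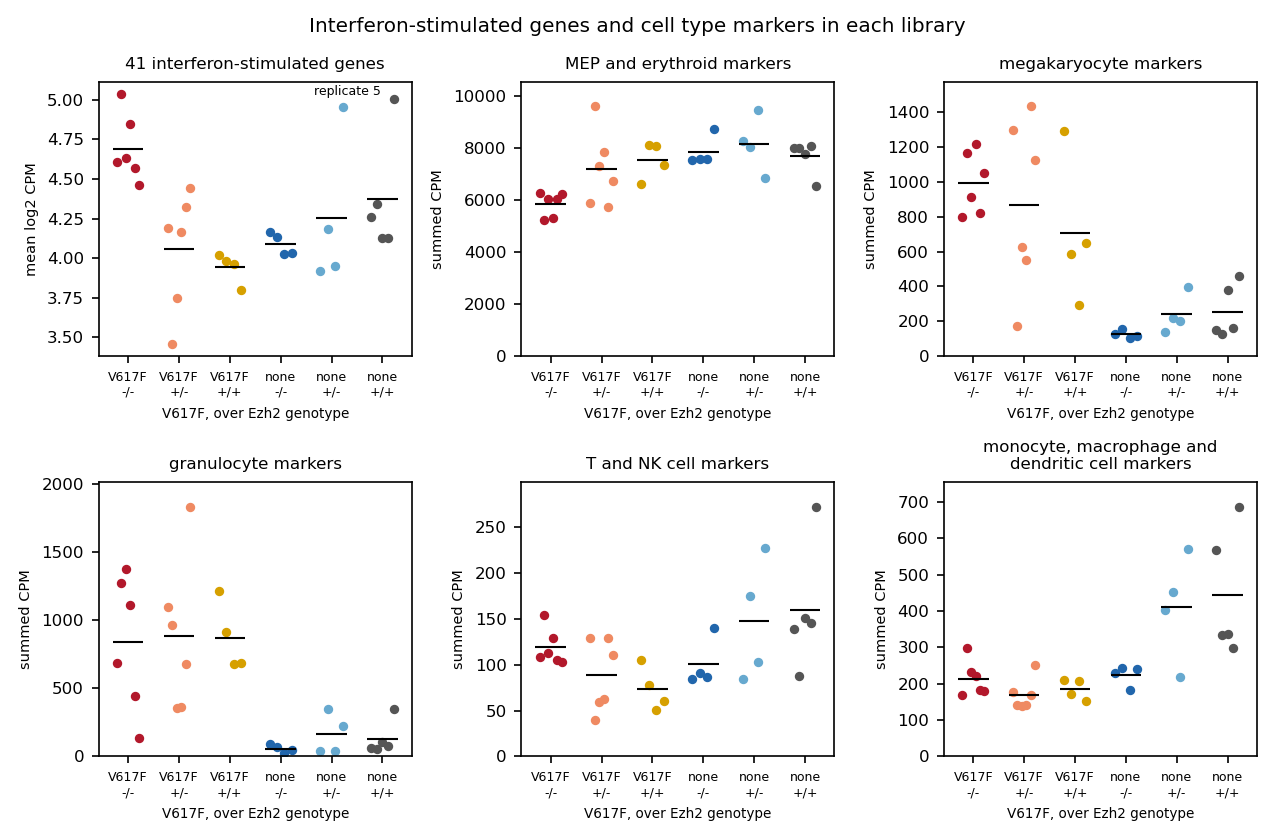
Points are libraries by group, with a line at the group mean. The first panel shows the mean log2 CPM of the 41 interferon-stimulated genes and the others show summed CPM of marker lists. V617F Ezh2 -/- libraries lie at 4.46 to 5.04 in the first panel, and control replicate 5, at 5.01, is the highest control there. It is also the highest control in every marker panel but that of MEP and erythroid markers, where it is the lowest.

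The counts by role that follow stand beside these shares of all tested genes. In V617F Ezh2 -/- against Ezh2 -/- 19.1% were higher and 22.5% lower. In V617F Ezh2 +/+ against controls 9.73% were higher and 13.9% lower, and 8.47% had a positive interaction. All 4 transcription factors of the pathway were lower in V617F Ezh2 +/+ than in controls. None was called in V617F Ezh2 -/- against Ezh2 -/-, and 3 had a positive interaction. Stat2 (Entrez 20847), the partner of IRF9 in the ISRE-binding complex, measured 24.6, 27.1 and 30.0 CPM (lowest, median and highest of 6) in V617F Ezh2 -/-, against 35.1, 35.4, 26.5 and 28.4 CPM in Ezh2 -/-. It measured 26.7, 27.6, 32.6 and 26.6 CPM in V617F Ezh2 +/+, against 55.2, 48.7, 48, 39.1 and 49.8 CPM in controls. The 2 Ezh2 -/- groups overlapped, while all V617F Ezh2 +/+ libraries lay below all controls. V617F changed Stat2 by -0.75 ± 0.10 in Ezh2 +/+ (edgeR adjusted p = 2.19e-05), its value in Ezh2 -/- was -0.18 ± 0.10 (adjusted p = 0.127), and the interaction was 0.57 ± 0.14 (adjusted p = 0.0176). Stat2 was also lower in Ezh2 -/- than in controls (-0.60 ± 0.10, edgeR adjusted p = 9.19e-05), a difference of -0.04 ± 0.10 (adjusted p = 0.806) when both groups carried V617F.

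Irf9 (Entrez 16391), the DNA-binding subunit of that complex, measured 58.2, 66.0 and 77.4 CPM (lowest, median and highest) in V617F Ezh2 -/-, against 69.2, 61.1, 58.7 and 58.9 CPM in Ezh2 -/-. In V617F Ezh2 +/+ it measured 42.8, 52.8, 64.3 and 55.0 CPM, against 93.4, 84.4, 74.3, 75.0 and 103 CPM in controls. Again the Ezh2 -/- groups overlapped and all V617F Ezh2 +/+ libraries were below all controls. The fold change of V617F was 0.10 ± 0.12 in Ezh2 -/- (edgeR adjusted p = 0.503) and -0.68 ± 0.13 in Ezh2 +/+ (adjusted p = 0.000529), with an interaction of 0.79 ± 0.18 (adjusted p = 0.0126).

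Irf7 (Entrez 54123), the factor that amplifies type I interferon production, measured 23.5, 25.6 and 34.4 CPM (lowest, median and highest) in V617F Ezh2 -/-, against 20.4, 18.8, 18.6 and 19.2 CPM in Ezh2 -/-. In V617F Ezh2 +/+ it measured 8.99, 12.8, 18.9 and 11.9 CPM, against 21.2, 27.8, 20.9, 20.8 and 43.4 CPM in controls. Neither pair of groups overlapped, V617F libraries being the higher ones without Ezh2 and the lower ones with it, although the first difference did not pass the test (0.45 ± 0.26, edgeR adjusted p = 0.155). In Ezh2 +/+ the change was -1.03 ± 0.27 (adjusted p = 0.00703) and the interaction was 1.48 ± 0.37 (adjusted p = 0.0184). Irf7 was also higher in V617F Ezh2 -/- than in V617F Ezh2 +/+ (0.99 ± 0.27, edgeR adjusted p = 0.00933).

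Irf1 (Entrez 16362), a factor induced strongly by interferon gamma, had V617F fold changes of the same sign in both. It measured 48.3, 62.0 and 111 CPM (lowest, median and highest) in V617F Ezh2 -/-, against 122, 109, 155 and 82.6 CPM in Ezh2 -/-. It measured 73.9, 69.6, 107 and 121 CPM in V617F Ezh2 +/+, against 253, 146, 138, 193 and 298 CPM in controls. The Ezh2 -/- groups overlapped and the Ezh2 +/+ groups did not, V617F being the lower. V617F gave -0.75 ± 0.32 in Ezh2 -/- (edgeR adjusted p = 0.0618) and -1.17 ± 0.34 in Ezh2 +/+ (adjusted p = 0.0153), and the interaction was 0.42 ± 0.47 (adjusted p = 0.515). Its 95% interval, -0.50 to 1.33, includes the interaction estimated for Irf9.

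Among the Mx GTPases and other antiviral effectors, 3 of 6 were higher and 1 lower in V617F Ezh2 -/- than in Ezh2 -/-, 2 were lower in V617F Ezh2 +/+ than in controls, and 3 had a positive interaction. Mx2 (Entrez 17858), a dynamin-like GTPase with antiviral activity, had the lowest adjusted p of the 41 for the interaction. It measured 2.05, 2.60 and 4.48 CPM (lowest, median and highest of 6) in V617F Ezh2 -/-, against 1.26, 1.38, 1.17 and 1.25 CPM in Ezh2 -/-. It measured 0.855, 0.919, 1.31 and 0.844 CPM in V617F Ezh2 +/+, against 2.15, 2.50, 1.82, 1.38 and 4.13 CPM in controls. Neither pair overlapped, and V617F libraries were the higher ones without Ezh2 and the lower ones with it. The V617F effect was 1.18 ± 0.31 in Ezh2 -/- (edgeR adjusted p = 0.00557) and -1.29 ± 0.32 in Ezh2 +/+ (adjusted p = 0.00495), and the interaction was 2.47 ± 0.44 (adjusted p = 0.00479).

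Mx1 (Entrez 17857), its paralog, had the same pair of calls at lower counts. It measured 0.504, 0.819 and 1.39 CPM (lowest, median and highest) in V617F Ezh2 -/-, against 0.366, 0.556, 0.256 and 0.344 CPM in Ezh2 -/-. It measured 0.207, 0.532, 0.435 and 0.228 CPM in V617F Ezh2 +/+, against 0.786, 0.771, 0.642, 0.819 and 1.44 CPM in controls. The first pair of groups overlapped and in the second all V617F libraries were lower. Its V617F effects were 1.1 ± 0.38 in Ezh2 -/- (edgeR adjusted p = 0.0235) and -1.36 ± 0.39 in Ezh2 +/+ (adjusted p = 0.0128), with an interaction of 2.46 ± 0.54 (adjusted p = 0.0125). The effect in Ezh2 +/+ did not pass without control replicate 5.

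Rsad2, which encodes viperin, was higher in V617F Ezh2 -/- at 16.3 ± 3.44 CPM than in Ezh2 -/- at 8.53 ± 0.951 CPM (SD, n = 6 and 4), with 9.62 ± 2.77 CPM in V617F Ezh2 +/+ and 12.3 ± 5.31 CPM in controls (n = 4 and 5). Isg20, an RNA exonuclease, was lower in V617F Ezh2 -/- at 50.6 ± 5.92 CPM than in Ezh2 -/- at 64.5 ± 9.01 CPM, a log2 change of -0.34 ± 0.12 (edgeR adjusted p = 0.0242), and had an interaction of -0.30 ± 0.17 (adjusted p = 0.183). Samhd1 (Entrez 56045), which hydrolyses deoxynucleotides, measured 114, 123 and 134 CPM (lowest, median and highest) in V617F Ezh2 -/-, against 119.6, 113, 118 and 114 CPM in Ezh2 -/-. It measured 127, 129, 152 and 134 CPM in V617F Ezh2 +/+, against 129, 135, 124, 126 and 138 CPM in controls. Both pairs overlapped, and the interaction of 0.05 ± 0.08 (edgeR adjusted p = 0.639) had a 95% interval of -0.11 to 0.21, narrow beside the estimates for Mx1 and Mx2. Bst2, the tether of budding virions, had an interaction of 0.20 ± 0.16 (adjusted p = 0.355).

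The 2-5A synthetases make the second messenger that activates the nuclease RNase L. Of the 5 family members 3 were higher in V617F Ezh2 -/- than in Ezh2 -/-, and 3 had a positive interaction. In V617F Ezh2 +/+ against controls 1 was lower, near the share of all genes. Oas2 (Entrez 246728) measured 6.65, 10.7 and 20.1 CPM (lowest, median and highest) in V617F Ezh2 -/-, against 5.41, 4.12, 3.30 and 2.75 CPM in Ezh2 -/-. It measured 4.35, 3.58, 3.98 and 3.28 CPM in V617F Ezh2 +/+, against 7.34, 6.08, 4.27, 4.18 and 18.7 CPM in controls. All V617F Ezh2 -/- libraries were above all Ezh2 -/- libraries, and the Ezh2 +/+ groups overlapped. V617F gave 1.45 ± 0.48 in Ezh2 -/- (edgeR adjusted p = 0.0191) and -1.16 ± 0.48 in Ezh2 +/+ (adjusted p = 0.0794), and the interaction was 2.61 ± 0.67 (adjusted p = 0.0195).

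Oas3 (Entrez 246727), whose ISRE-like match is shown above, measured 20.9, 24.2 and 38.7 CPM (lowest, median and highest) in V617F Ezh2 -/-, against 16.6, 14.1, 12.5 and 13.6 CPM in Ezh2 -/-. In V617F Ezh2 +/+ the values were 13.1, 11.3, 14.4 and 9.49 CPM, against 18.1, 20.5, 14.4, 14.5 and 34.0 CPM in controls. V617F libraries were all above the others without Ezh2, and the Ezh2 +/+ groups overlapped. The changes with V617F were 0.85 ± 0.29 in Ezh2 -/- (edgeR adjusted p = 0.0241) and -0.77 ± 0.30 in Ezh2 +/+ (adjusted p = 0.0621), with an interaction of 1.62 ± 0.42 (adjusted p = 0.0195). Oas1a had an interaction of 1.08 ± 0.35 (adjusted p = 0.0375) with neither effect called. Oasl2 was higher in V617F Ezh2 -/- at 25.3 ± 7.21 CPM than in Ezh2 -/- at 9.52 ± 1.02 CPM (1.21 ± 0.46, edgeR adjusted p = 0.0384).

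Oasl1 (Entrez 231655), a relative of the synthetases, was called for V617F in Ezh2 +/+ and not in Ezh2 -/-, the reverse of Oas2 and Oas3. It measured 21.1, 27.8 and 29.6 CPM (lowest, median and highest) in V617F Ezh2 -/-, against 33.2, 30.3, 27.5 and 32.7 CPM in Ezh2 -/-. Its values were 9.51, 20.5, 29.6 and 17.4 CPM in V617F Ezh2 +/+, against 37.3, 41.2, 30.9, 29.1 and 38.5 CPM in controls. Both pairs overlapped, the second through 1 V617F library. In Ezh2 +/+ the change was -0.86 ± 0.21 (edgeR adjusted p = 0.00435), the value in Ezh2 -/- was -0.14 ± 0.20 (adjusted p = 0.583), and the interaction was 0.72 ± 0.29 (adjusted p = 0.0724).

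IFIT proteins bind viral RNA, and 2 of the 3 genes were higher in V617F Ezh2 -/- than in Ezh2 -/- while none was called in V617F Ezh2 +/+ against controls. Ifit1 (Entrez 15957), whose 2 ISRE-like matches are shown above, measured 4.04, 4.82 and 11 CPM (lowest, median and highest) in V617F Ezh2 -/-, against 2.50, 2.10, 2.55 and 1.80 CPM in Ezh2 -/-. It measured 2.54, 1.60, 1.33 and 1.44 CPM in V617F Ezh2 +/+, against 1.49, 2.25, 2.0, 2.05 and 5.54 CPM in controls. The V617F Ezh2 -/- libraries were all above the Ezh2 -/- libraries, and the Ezh2 +/+ groups overlapped. V617F effects were 1.29 ± 0.37 in Ezh2 -/- (edgeR adjusted p = 0.00965) and -0.71 ± 0.38 in Ezh2 +/+ (adjusted p = 0.17), and the interaction was 2.0 ± 0.53 (adjusted p = 0.0201).

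Ifit2 (Entrez 15958) had V617F fold changes of the same sign in both Ezh2 genotypes. It measured 32.1, 39.7 and 41.3 CPM (lowest, median and highest) in V617F Ezh2 -/-, against 25, 34.8, 26.8 and 23.5 CPM in Ezh2 -/-. It measured 43.3, 31.0, 21.1 and 20.5 CPM in V617F Ezh2 +/+, against 18.7, 20.4, 20.9, 22.7 and 26.7 CPM in controls. Both pairs overlapped. The fold changes were 0.41 ± 0.16 in Ezh2 -/- (edgeR adjusted p = 0.0438, a call lost in 13 of the 29 fits without 1 library) and 0.35 ± 0.17 in Ezh2 +/+ (adjusted p = 0.128), and the interaction was 0.06 ± 0.23 (adjusted p = 0.846) with a 95% interval of -0.38 to 0.51. Ifit3, the gene with the lowest level per length, was called in none of the comparisons.

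The Ifitm genes, which encode membrane proteins that restrict virus entry, were all 3 higher in V617F Ezh2 -/- than in Ezh2 -/-, and none was called in V617F Ezh2 +/+ against controls. Ifitm1 averaged 51.3 ± 16.5 CPM in V617F Ezh2 -/- and 7.62 ± 1.90 CPM in Ezh2 -/- (SD, n = 6 and 4), a log2 change of 2.36 ± 0.55 (edgeR adjusted p = 0.00238) and the largest V617F effect among the 41 in Ezh2 -/-. It averaged 21.2 ± 12.6 CPM in V617F Ezh2 +/+ and 14.8 ± 12.7 CPM in controls (n = 4 and 5), and its interaction was 2.0 ± 0.71 (adjusted p = 0.0498). That interaction lost its call in 18 of the 29 fits without 1 library. Ifitm3 was higher in V617F Ezh2 -/- at 124 ± 12.4 CPM than in Ezh2 -/- at 51.1 ± 2.69 CPM (1.15 ± 0.23, edgeR adjusted p = 0.000979), with an interaction of 0.87 ± 0.32 (adjusted p = 0.0568).

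Ifitm2 (Entrez 80876), the gene with the highest level per length, measured 156, 163 and 195 CPM (lowest, median and highest) in V617F Ezh2 -/-, against 130.3, 143, 126 and 117 CPM in Ezh2 -/-. It measured 156, 145, 125 and 136 CPM in V617F Ezh2 +/+, against 137, 139, 139.5, 145 and 167 CPM in controls. V617F libraries were all higher without Ezh2, and the groups overlapped with it. The V617F effects, 0.34 ± 0.10 in Ezh2 -/- (edgeR adjusted p = 0.0123) and -0.08 ± 0.10 in Ezh2 +/+ (adjusted p = 0.612), gave an interaction of 0.41 ± 0.14 (adjusted p = 0.0443).

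The sensors detect viral RNA (Ifih1, Ddx58, Dhx58, Eif2ak2) or nucleic acid in the Z form (Zbp1). Of these 5, 1 was higher in V617F Ezh2 -/- than in Ezh2 -/- and 1 was lower in V617F Ezh2 +/+ than in controls. Both are near the shares of all genes. A positive interaction was called for 3, namely Zbp1 (2.03 ± 0.67, edgeR adjusted p = 0.0378), Ddx58 (1.30 ± 0.42, adjusted p = 0.0354) and Dhx58 (0.95 ± 0.27, adjusted p = 0.0247). Ddx58, which encodes RIG-I, was the one higher, at 33.8 ± 9.10 CPM in V617F Ezh2 -/- and 18.7 ± 4.01 CPM in Ezh2 -/- (SD, n = 6 and 4). Eif2ak2 (Entrez 19106), the kinase PKR, measured 80.3, 85.8 and 94.2 CPM (lowest, median and highest) in V617F Ezh2 -/-, against 77.1, 77.9, 70.3 and 79.7 CPM in Ezh2 -/-. It measured 74.8, 89.2, 82.8 and 72.0 CPM in V617F Ezh2 +/+, against 83.4, 86.0, 76.7, 76.1 and 86.6 CPM in controls. The Ezh2 -/- groups did not overlap, by a narrow margin, the Ezh2 +/+ groups did, and the interaction was 0.21 ± 0.11 (edgeR adjusted p = 0.15).

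ISG15 is a ubiquitin-like protein that is conjugated to other proteins, USP18 removes it and also dampens the type I receptor, and TRIM25 is a ligase that acts on RIG-I. Isg15 was lower in V617F Ezh2 +/+ at 4.27 ± 0.738 CPM than in controls at 8.11 ± 3.21 CPM (-0.95 ± 0.28, edgeR adjusted p = 0.015), and averaged 8.95 ± 1.86 CPM in V617F Ezh2 -/- and 6.35 ± 0.659 CPM in Ezh2 -/- (0.42 ± 0.27, adjusted p = 0.205). Its interaction was 1.37 ± 0.39 (adjusted p = 0.0241). Usp18 was higher in V617F Ezh2 -/- at 15.9 ± 4.10 CPM than in Ezh2 -/- at 9.66 ± 1.65 CPM (0.69 ± 0.27, adjusted p = 0.0455), with an interaction of 1.32 ± 0.39 (adjusted p = 0.0272). Trim25 (Entrez 217069) measured 147, 161 and 175 CPM (lowest, median and highest) in V617F Ezh2 -/-, against 172, 145, 149 and 174 CPM in Ezh2 -/-. It measured 130.4, 154, 175 and 144 CPM in V617F Ezh2 +/+, against 187, 178, 159, 158 and 179 CPM in controls. Both pairs overlapped, and Trim25 was called in none of the comparisons.

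The antigen processing genes are the immunoproteasome subunits Psmb8 and Psmb9 and the peptide transporter Tap1. In edgeR's test 0 of the 3 were called for V617F in either Ezh2 genotype, with 1 higher in V617F Ezh2 -/- and 1 lower in V617F Ezh2 +/+ at an unadjusted p under 0.05. DESeq2 gave Tap1 an adjusted p of 0.0415 in Ezh2 +/+. Psmb8 had an interaction of 0.67 ± 0.23 (edgeR adjusted p = 0.0466) and Psmb9 one of 0.52 ± 0.27 (adjusted p = 0.155). The Psmb8 interaction lost its call in 16 of the 29 fits without 1 library. Tap1 (Entrez 21354) measured 169, 190.1 and 252 CPM (lowest, median and highest) in V617F Ezh2 -/-, against 169, 189.6, 169 and 142 CPM in Ezh2 -/-. It measured 158, 151, 137 and 132 CPM in V617F Ezh2 +/+, against 194, 192, 155, 178 and 239.8 CPM in controls. Both pairs overlapped, and the interaction was 0.61 ± 0.22 (edgeR adjusted p = 0.052).

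The 9 further genes held the largest interaction. Of them 5 were higher in V617F Ezh2 -/- than in Ezh2 -/-, 4 were lower in V617F Ezh2 +/+ than in controls, and 7 had a positive interaction. Ifi27l2a (Entrez 76933), a small membrane protein, measured 1.1, 1.80 and 3.21 CPM (lowest, median and highest) in V617F Ezh2 -/-, against 0.570, 0.453, 0.494 and 0.709 CPM in Ezh2 -/-. It measured 0.311, 0.218, 0.131 and 0.160 CPM in V617F Ezh2 +/+, against 0.629, 0.476, 0.679, 0.819 and 1.98 CPM in controls. The V617F Ezh2 +/+ values rest on only 12, 9, 6 and 7 counts. Neither pair overlapped, with V617F the higher without Ezh2 and the lower with it. V617F gave 1.5 ± 0.51 in Ezh2 -/- (edgeR adjusted p = 0.0233) and -2.26 ± 0.56 in Ezh2 +/+ (adjusted p = 0.00504), and the interaction was 3.76 ± 0.75 (adjusted p = 0.00901).

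Sp100 (Entrez 20684), a component of PML nuclear bodies, had the same directions at a higher level. It measured 39.8, 47.9 and 61.1 CPM (lowest, median and highest) in V617F Ezh2 -/-, against 34.0, 37.1, 27.2 and 31.7 CPM in Ezh2 -/-. It measured 37.2, 33.4, 30.6 and 31.5 CPM in V617F Ezh2 +/+, against 45.1, 44.1, 38.5, 39.0 and 59.5 CPM in controls. Both pairs were apart, in opposite directions. The fold changes with V617F were 0.54 ± 0.17 in Ezh2 -/- (edgeR adjusted p = 0.0147) and -0.48 ± 0.17 in Ezh2 +/+ (adjusted p = 0.0431), with an interaction of 1.02 ± 0.24 (adjusted p = 0.0138). The change in Ezh2 +/+ did not pass without control replicate 5, and it lost its call in 12 of the 29 fits without 1 library.

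Rtp4 (Entrez 67775), a transport protein for membrane receptors, measured 11.2, 14.8 and 23.4 CPM (lowest, median and highest) in V617F Ezh2 -/-, against 10.3, 8.55, 9.19 and 8.81 CPM in Ezh2 -/-. In V617F Ezh2 +/+ it measured 4.72, 5.30, 5.40 and 4.27 CPM, against 8.25, 10.5, 6.71, 7.05 and 21.3 CPM in controls. Neither pair overlapped, again in opposite directions. V617F changed it by -1.16 ± 0.35 in Ezh2 +/+ (edgeR adjusted p = 0.0188), its value in Ezh2 -/- was 0.70 ± 0.34 (adjusted p = 0.0988), and the interaction was 1.86 ± 0.49 (adjusted p = 0.0201). Xaf1, a binding partner of the apoptosis inhibitor XIAP, had the same pattern of calls, with an interaction of 1.17 ± 0.32 (adjusted p = 0.0232). For both genes the change in Ezh2 +/+ did not pass without control replicate 5. That call was lost in 9 of the 29 fits without 1 library for Xaf1 and in 2 for Rtp4.

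Trim30a (Entrez 20128), a mouse TRIM protein that restrains innate signalling, measured 35.5, 47.4 and 69.5 CPM (lowest, median and highest) in V617F Ezh2 -/-, against 29, 28.2, 20.8 and 27.2 CPM in Ezh2 -/-. It measured 42.2, 36.0, 32.1 and 28 CPM in V617F Ezh2 +/+, against 41, 40.3, 35.3, 35.5 and 61.8 CPM in controls. The pair without Ezh2 was apart, V617F being higher, and the other overlapped. With V617F the change was 0.85 ± 0.23 in Ezh2 -/- (edgeR adjusted p = 0.00649) and the value in Ezh2 +/+ was -0.34 ± 0.23 (adjusted p = 0.29), and the interaction was 1.19 ± 0.32 (adjusted p = 0.0216).

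Parp9 (Entrez 80285), of the ADP-ribosyltransferase family, measured 57.1, 62.3 and 77.5 CPM (lowest, median and highest) in V617F Ezh2 -/-, against 54.2, 50.5, 51.6 and 49.9 CPM in Ezh2 -/-. It measured 38.8, 47.8, 51.9 and 43.5 CPM in V617F Ezh2 +/+, against 53.9, 57.3, 51.1, 48.7 and 71.2 CPM in controls. The V617F Ezh2 -/- libraries were all higher than the Ezh2 -/- libraries, and the Ezh2 +/+ groups overlapped. Parp9 and its relative Parp14 had interactions of 0.61 ± 0.18 (edgeR adjusted p = 0.0279) and 0.84 ± 0.26 (adjusted p = 0.0335), with no V617F effect called in either genotype.

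**Figure D5:**
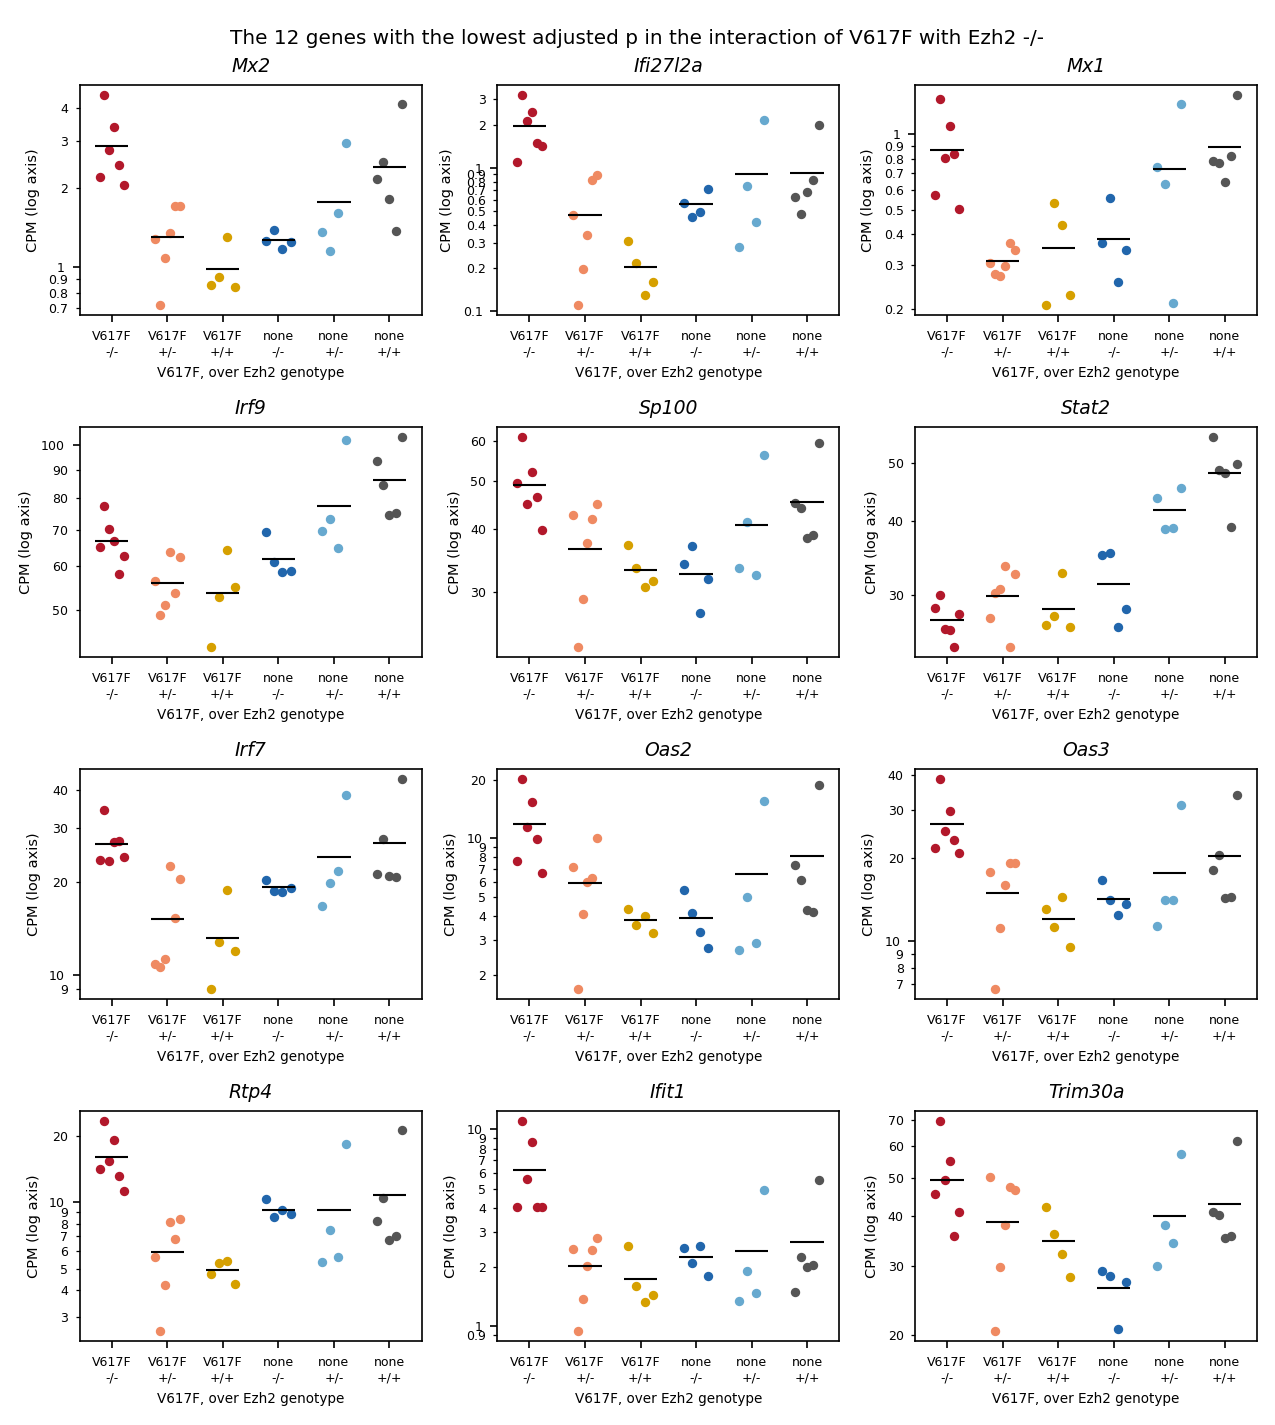
CPM on log axes in each library, with a line at the group mean, for the 12 genes with the lowest adjusted p for the interaction. Columns give V617F or none over the Ezh2 genotype. In Mx2 and Ifi27l2a all V617F libraries lie above those without V617F in Ezh2 -/- and below them in Ezh2 +/+, whereas Stat2 and Irf9 overlap in Ezh2 -/- and are apart in Ezh2 +/+.

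Loss of Ezh2 was compared within each V617F state. With V617F 17 of the 41 genes (41.5%) were higher and 0 lower in V617F Ezh2 -/- than in V617F Ezh2 +/+, where 13% of all tested genes were higher and 13.6% lower, and the median log2 fold change was 0.51, beside 0.00 over all genes. At an unadjusted p under 0.05, 31 were higher and 0 lower, and DESeq2 called 21 higher and 0 lower. Ifi27l2a had the largest of these changes (3.07 ± 0.56, edgeR adjusted p = 0.000309), followed by Ifit1 at 1.67 ± 0.38 and Rtp4 at 1.59 ± 0.36. The count higher was 10 without V617F Ezh2 +/+ replicate 4 and 11 without V617F Ezh2 -/- replicate 2. The shares of all genes in those fits are not given. Of 14 B cell markers 9 were higher in the same comparison, and their part in it was not tested. Ifitm3 and Oasl1, both among the 17, lost this call in 20 and 16 of the 29 fits without 1 library.

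Without V617F 0 of the 41 genes were higher and 7 (17.1%) were lower in Ezh2 -/- than in controls, where 11.5% of all tested genes were higher and 12.2% lower, and the median was -0.33, beside -0.01 over all genes. At an unadjusted p under 0.05, 2 were higher and 13 lower, and DESeq2 called 0 higher and 9 lower. The 7 were Stat2, Irf9, Mx1, Mx2, Sp100, Trim30a and Samhd1. Of these Stat2 and Irf9 were still called without control replicate 5, where 7.73% of all genes were lower, a larger share than these 2 of 41. The count was 2 without Ezh2 -/- replicate 3, where 5.80% of all genes were lower, again a larger share than that of the members. It was 4 without Ezh2 -/- replicate 1 and 4 without control replicate 2. Samhd1 lost its call in 17 of the 29 fits without 1 library. In the same comparison 7 of 23 T and NK cell markers, 7 of 24 monocyte, macrophage and dendritic cell markers and 7 of 17 stem and multipotent progenitor markers were lower. The monocyte, macrophage and dendritic cell sums, 182 to 243 CPM in Ezh2 -/- and 298 to 687 CPM in controls, did not overlap. The part of these cells in the 7 genes was not tested. The V617F and Ezh2 comparisons use the same 4 groups of libraries, so their calls are not separate observations.

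In Ezh2 +/- MEPs fewer genes were called. Of the 41 genes 0 were higher and 4 (9.76%) were lower in V617F Ezh2 +/- than in Ezh2 +/-, namely Irf1, Irf9, Mx1 and Stat2, where 3.35% of all tested genes were higher and 6.51% lower. The median was -0.31, beside 0.00 over all genes. At an unadjusted p under 0.05, 1 was higher and 11 lower, and DESeq2 called 0 higher and 4 lower. The count lower was 0 without Ezh2 +/- replicate 5, the library that was highest in 40 genes, and 2 without V617F Ezh2 +/- replicate 3. In this comparison 18 of 23 T and NK cell markers and 16 of 24 monocyte, macrophage and dendritic cell markers were lower, while 12 of 18 granulocyte and 8 of 15 megakaryocyte markers were higher. Summed T and NK cell levels ran from 39.4 to 129 CPM in V617F Ezh2 +/- and 84.1 to 227 CPM in Ezh2 +/-, and monocyte, macrophage and dendritic cell sums from 139 to 251 CPM in V617F Ezh2 +/- and 219 to 572 CPM in Ezh2 +/-. Their part in the 4 genes was not tested.

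Stat2 measured 24.6, 30.5 and 33.6 CPM (lowest, median and highest) in V617F Ezh2 +/-, against 43.7, 38.7, 38.8 and 45.4 CPM in Ezh2 +/-, with no overlap (-0.44 ± 0.10, edgeR adjusted p = 0.00607). Mx2 measured 0.720, 1.31 and 1.70 CPM in V617F Ezh2 +/-, against 1.36, 1.15, 1.60 and 2.95 CPM in Ezh2 +/-. For Ifi27l2a the values were 0.111, 0.407 and 0.888 CPM in V617F Ezh2 +/-, against 0.279, 0.747, 0.421 and 2.15 CPM in Ezh2 +/-. Mx2 and Ifi27l2a overlapped between these groups and were not called. V617F Ezh2 +/- replicate 2 was the lowest of its 6 libraries in 32 of the 41 genes. The share of all tested genes in which it was the lowest is not given.

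Between Ezh2 +/- and Ezh2 +/+ no interferon-stimulated gene passed the threshold. In edgeR's test the counts were 0 of 41 in V617F Ezh2 +/- against V617F Ezh2 +/+, 0 of 41 in Ezh2 +/- against controls and 0 of 41 for the interaction of V617F with Ezh2 +/-, with DESeq2 also at 0 in all 3. Of all tested genes 0.00718%, 0.0144% and 0% were called. At an unadjusted p under 0.05 the counts of the 41 were 0, 1 and 1, and the median log2 values were 0.09, -0.10 and 0.17.

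Of the 41 genes 35 were called in at least 1 of 5 comparisons, which are V617F in Ezh2 -/- and in Ezh2 +/+, Ezh2 -/- with and without V617F, and the interaction. Those called in none were Eif2ak2, Ifih1, Ifit3, Psmb9, Tap1 and Trim25. Among these 5 comparisons Irf1 was called for V617F in Ezh2 +/+ alone, and Isg20, Ifi35, Ifit2 and Oasl2 for V617F in Ezh2 -/- alone. An ISRE-like match was present in 9 of the 15 genes with a called interaction and a promoter window, and in 5 of the 16 genes with a window and no called interaction.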

How the data were processed

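Gene counts per library were deposited by the authors as whole-number counts, not normalized. RNA came from 230000 sorted MEPs per the labels' protocols, and reads were aligned with STAR to mm9 per the submitters' processing notes (counting program, annotation and strand not given in the sources used here). A gene symbol was found for 18772 of the 18834 rows, and rows without a symbol were kept for the filter and the fit. A single edgeR 4.0.16 quasi-likelihood fit (R 4.3.3) of 29 libraries had a term for each of 6 groups and for sex, TMM scaling (0.950 to 1.09), filterByExpr with a minimum count of 10, and Benjamini-Hochberg adjustment over 13928 genes at 0.05. The SE is the log2 fold change over the root of F. The common dispersion was 0.0326, with 22 residual degrees of freedom. Annotated length from the files gives RPKM. The fit was tested on simulated data. The members and lists were chosen with earlier results of these data known. Genes given per library are the 12 with the lowest adjusted p for the interaction and the highest-expressed further member of each role, and genes of other lists are the 4 with the lowest adjusted p in each direction. Alternatives were DESeq2 1.42.0, its size factors, no filter, no sex term, females alone, the compared groups alone, a replicate block, leaving out each library, and leaving out 3 libraries together. In the median, same-numbered libraries deviated together no more than others (r -0.00525 over 62 pairs, against 0.0212 over 286 pairs). The highest r was 0.795 among the same-numbered pairs and 0.641 among the others. Replicate numbers were not taken as pairs, and a batch shared by some numbers was not tested. Promoter sequences are from RefSeq on GRCm38.p6.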

Additional observations from a re-analysis of the deposited data

Results flagged for a closer look

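Of 246 sets formed by 1 gene and 1 group, 28 (11.4%) held a library whose gap to its nearest neighbour was large beside the group's whole range by Dixon's test at the 95% level. Chance flags about 1 in 20 such sets, and genes of 1 library are not independent. Replicate 2 of V617F Ezh2 -/- was the highest of its group, far from the rest, for Irf7 (34.4 CPM). Replicate 1 of V617F Ezh2 -/- was the highest of its group, far from the rest, for Psmb9 (83.5 CPM) and Tap1 (252 CPM). Replicate 3 of V617F Ezh2 +/+ was the highest of its group, far from the rest, for Mx2 (1.31 CPM) and Dhx58 (17.6 CPM). Replicate 5 of Ezh2 +/- was the highest of its group, far from the rest, for Oas3 (31.2 CPM), Oasl2 (26 CPM), Ifit1 (4.92 CPM), Ifit3 (0.683 CPM), Ifih1 (76.9 CPM), Rsad2 (22.8 CPM) and Rtp4 (18.3 CPM). Replicate 5 of the controls was the highest of its group, far from the rest, for Mx1 (1.44 CPM), Oas2 (18.7 CPM), Oasl2 (23.6 CPM), Ifit1 (5.54 CPM), Ifitm1 (37.3 CPM), Ifitm2 (167 CPM), Ifitm3 (97.5 CPM), Ifi27l2a (1.98 CPM), Ifi44 (9.07 CPM), Isg15 (13.7 CPM), Usp18 (14.2 CPM), Rtp4 (21.3 CPM), Trim30a (61.8 CPM), Zbp1 (7.19 CPM), Psmb8 (136 CPM) and Psmb9 (62.1 CPM). The mean log2 CPM of the 41 genes stood apart in the same way in replicate 5 of the controls, at 5.01. Values of T and NK cell and monocyte markers in these libraries are given in the report, and their part in these values was not tested.

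The V617F effect differed between Ezh2 -/- and Ezh2 +/+ by the interaction test in edgeR for 25 genes. The log2 differences were 2.47 for Mx2, 3.76 for Ifi27l2a, 2.46 for Mx1, 0.79 for Irf9, 1.02 for Sp100, 0.57 for Stat2, 1.48 for Irf7, 1.62 for Oas3, 2.61 for Oas2, 2.0 for Ifit1, 1.86 for Rtp4, 1.19 for Trim30a, 1.17 for Xaf1, 1.37 for Isg15, 0.95 for Dhx58, 1.32 for Usp18, 0.61 for Parp9, 0.84 for Parp14, 1.30 for Ddx58, 1.08 for Oas1a, 1.24 for Rsad2, 2.03 for Zbp1, 0.41 for Ifitm2, 0.67 for Psmb8 and 2.0 for Ifitm1. All 25 were higher in the Ezh2 -/- contrast, and the report gives the libraries without which fewer genes passed.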

How the results depend on the processing

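The counts of genes called moved with the setting, while no gene's V617F effect, Ezh2 effect or interaction that was called changed sign under any of the 8 settings or the 29 fits without 1 library. Without 1 library, the count higher in V617F Ezh2 -/- than in Ezh2 -/- ran from 5 to 27 and the count lower from 0 to 2. In V617F Ezh2 +/+ against controls, 0 to 1 were higher and 6 to 18 lower, and in V617F Ezh2 +/- against Ezh2 +/- 0 to 1 were higher and 0 to 5 lower. For Ezh2 -/- the ranges were 10 to 24 higher with V617F and 2 to 10 lower without it, and for the interaction with Ezh2 -/- 4 to 28 positive. In the other counts the value was 0 without any 1 library. In females alone, 7 were lower in V617F Ezh2 +/+, where 8.12% of all genes were. With the same females, 0 were lower in V617F Ezh2 -/- (16.2% of all genes) and 1 in Ezh2 -/- without V617F (5.599%). There 5 interactions were positive, where 0.614% of all genes were. With the compared groups alone, 29 were higher and 2 lower in V617F Ezh2 -/-, and 1 lower in V617F Ezh2 +/-. The shares of all genes in that setting are not given. Another setting left out control replicate 5 and Ezh2 +/- replicates 2 and 5. There 6 were lower in V617F Ezh2 +/+ (10% of all genes) and 29 higher in V617F Ezh2 -/- (21%). In Ezh2 -/- without V617F 1 was higher (9.5%) and 2 were lower (6.09%). In V617F Ezh2 -/- against V617F Ezh2 +/+ 28 were higher (14.1%). In V617F Ezh2 +/- 0 were lower, and the share of all genes is not given for that count. With a replicate block, 2 were lower in V617F Ezh2 -/- (21.5% of all genes) and 3 in Ezh2 -/- without V617F (11.2%). In that setting 1 was lower in V617F Ezh2 -/- against V617F Ezh2 +/+ (11.9%), and 13 interactions were positive (5.66%). In V617F Ezh2 +/- 2 were lower with the block. Same-numbered libraries correlated at -0.489 to 0.795, with 22 of 62 pairs over 0.1. Others correlated at -0.667 to 0.641, with 108 of 286 pairs over 0.1. The labels name no pairing by replicate number. The other settings (DESeq2, its size factors, no filter, no sex term) kept every count within 1.5 times, and the cause of these shifts was not tested. With 4 to 6 libraries a group and a biological coefficient of variation of 18.1%, genes near 1 CPM such as Mx1, Ifit3 and Ifi27l2a have wide intervals.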

Other observations

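The other parts of the interferon pathway were read in lists of related genes. For the counts below, of all tested genes 19.1% were higher and 22.5% lower in V617F Ezh2 -/- than in Ezh2 -/-, 9.73% higher and 13.9% lower in V617F Ezh2 +/+ than in controls, and 8.47% positive in the interaction. Of 21 listed interferon genes 5 were matched in the count tables, and the others, the numbered Ifna genes, Ifnk, Ifnl2 and Ifnl3, were not analysed here. Of the 5, Ifnab, Ifnb1, Ifne and Ifnz held 0 to 11 counts summed over all libraries of a group, and Ifng was the one tested. Ifng encodes interferon gamma, which T and NK cells secrete. It was lower in V617F Ezh2 -/- at 0.460 ± 0.190 CPM than in Ezh2 -/- at 1.5 ± 0.741 CPM (-1.99 ± 0.60, edgeR adjusted p = 0.012). It was also lower in V617F Ezh2 +/+ at 0.308 ± 0.375 CPM than in controls at 1.72 ± 0.921 CPM (-2.63 ± 0.65, adjusted p = 0.00505), beside the T and NK cell markers that were lower there, whose part in it was not tested.

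Of 8 genes of interferon receptors and their kinases, 1 was lower in V617F Ezh2 -/- than in Ezh2 -/-, and 4 were lower in V617F Ezh2 +/+ than in controls. Ifngr2, a chain of the interferon gamma receptor, was lower in both, at 11.3 ± 0.691 CPM in V617F Ezh2 -/- and 14.4 ± 1.57 CPM in Ezh2 -/-, and at 13.9 ± 1.71 CPM in V617F Ezh2 +/+ and 20.5 ± 1.55 CPM in controls. Without V617F, 6 of the 8 were lower in Ezh2 -/- than in controls, among them the type I receptor chain Ifnar2 (-0.21 ± 0.05, edgeR adjusted p = 0.00166), and Ifnlr1, a lambda receptor chain, was higher (0.94 ± 0.25, adjusted p = 0.00733). The interaction was called for Il10rb (0.33 ± 0.10, adjusted p = 0.0308).

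Of 17 genes of upstream sensing and induction, 4 were higher and 1 lower in V617F Ezh2 -/- than in Ezh2 -/-, where the 4 are a share near the 19.1% of all genes, and 1 was higher and 4 lower in V617F Ezh2 +/+ than in controls. Unc93b1, which carries nucleic acid sensing Toll-like receptors to endosomes, was higher in V617F Ezh2 -/- at 11.9 ± 3.52 CPM than in Ezh2 -/- at 4.26 ± 0.517 CPM (edgeR adjusted p = 0.0247). The DNA sensor cGAS, under its older symbol Mb21d1, was higher in V617F Ezh2 -/- than in V617F Ezh2 +/+ (0.71 ± 0.13, adjusted p = 0.00033) and higher in Ezh2 -/- than in controls (0.58 ± 0.13, adjusted p = 0.0018). Among 6 further IRF factors the interaction was called for Irf5 (2.39 ± 0.75, adjusted p = 0.0323). Of 13 feedback regulators and repressors 3 had a positive interaction. Socs1, an interferon-induced inhibitor of the receptor kinases, averaged 1.66 ± 0.465 CPM in V617F Ezh2 -/- and 0.589 ± 0.163 CPM in Ezh2 -/- (1.41 ± 0.38, adjusted p = 0.00651), and 0.812 ± 0.112 CPM in V617F Ezh2 +/+ and 1.07 ± 0.438 CPM in controls, with an interaction of 1.83 ± 0.53 (adjusted p = 0.0255).

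A longer list of 99 other tested interferon-stimulated genes, chosen with earlier results of these data known, had 46 higher and 8 lower in V617F Ezh2 -/- than in Ezh2 -/- (median 0.35), and 4 higher and 29 lower in V617F Ezh2 +/+ than in controls (median -0.21). The interaction was called positive for 27 (median 0.71). The lowest adjusted p were those of Oas1b (1.16 ± 0.25, edgeR adjusted p = 0.0121) and Slfn8 (1.59 ± 0.35, adjusted p = 0.0125). Within this list the GBP and IRG GTPases, which attack the vacuoles of intracellular microbes and are induced mainly by interferon gamma, had 10 of 16 higher in V617F Ezh2 -/- than in Ezh2 -/-, 4 of 16 lower in V617F Ezh2 +/+ than in controls, and 1 positive interaction. Of 10 class I antigen presentation genes 3 had a positive interaction. Cxcl10, a chemokine gene, was lower in V617F Ezh2 -/- at 5.37 ± 2.73 CPM than in Ezh2 -/- at 13.6 ± 4.35 CPM (-1.35 ± 0.32, adjusted p = 0.00266). Ifitm6 was higher with V617F in both Ezh2 genotypes (3.81 ± 0.53 in Ezh2 -/- and 2.26 ± 0.45 in Ezh2 +/+).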
